A study of Homo sapiens with 4 samples.

Results

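TNFSF18, TNFAIP3 and IER3 are 3 of the 2548 genes that the array table measured under their own name, and each was found by its gene symbol. TNFSF18 encodes a ligand of the tumour necrosis factor (TNF) family, and TNFAIP3 and IER3 are genes that NF-kB, the transcription factor downstream of TNF receptors, switches on and whose products feed back on its signalling. The 3 were chosen by pathway with their hormone and knockdown differences on these same arrays already known, so those differences are given as descriptions, without a test. RNA came from LNCaP, a prostate cancer cell line established from a lymph node metastasis that carries a mutant androgen receptor and depends on androgen. There were 4 groups of 1 Affymetrix array each: cells with siPOTEF-AS1, an siRNA against the antisense noncoding RNA POTEF-AS1, given dihydrotestosterone (DHT, the potent natural androgen) at 10 nM; the same siRNA with ethanol vehicle; siControl with 10 nM DHT; and siControl with vehicle. All 4 cultures were kept for 3 days in 2.5% serum stripped of steroids, and the siRNA went in 48 h ahead of the hormone. The comparison asks which androgen-dependent changes of expression the knockdown alters.

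The values are log2 signals per probe set, and a difference of 1 is 2-fold. No detection calls were used here, so a floor was set at the median log2 signal of all named genes, 6.50. A gene with at least 1 array at or above it was counted as expressed, which held for 1344 named genes and for TNFSF18, TNFAIP3 and IER3. A fold is given only where both signals lie above the floor. The arrays were alike: over 33297 probe sets any pair correlated with a Pearson r of 0.988 to 0.995, a description across probe sets, and the array medians ran from 6.72 to 6.77. POTEF-AS1 itself had 0 probe sets under its name, so the knockdown was not checked. None of the 12 luminal prostate markers, 7 immune, 3 endothelial and 4 fibroblast markers looked up was measured under its name, and the cell type could not be checked by them. Of 4 basal markers, KRT15 stayed below the floor on the 4 arrays, between 5.28 and 5.59. KRT5, a basal keratin, had log2 signals of 6.47 and 5.98 with siPOTEF-AS1 (DHT and vehicle), both below the floor. With siControl they were 6.53 and 6.57 (DHT and vehicle).

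TNF family ligands are mostly membrane-bound or shed trimers that engage receptors of the TNF receptor superfamily, whose adaptor proteins activate the IkB kinases. These release NF-kB, which enters the nucleus and induces inflammatory and survival genes together with its own inhibitors. TNFSF18, also called GITRL, binds the receptor GITR (TNFRSF18) and costimulates T cells; it is best known from antigen-presenting and endothelial cells. TNFAIP3 encodes A20, a ubiquitin-editing enzyme that dismantles the ubiquitin chains on which NF-kB activation depends. IER3, also called IEX-1, is an immediate early gene whose small product modulates apoptosis and survival signalling. In prostate cells the androgen receptor and NF-kB are known to influence each other's target genes, and repression by androgen is as much part of the hormone response as induction.

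The RefSeq promoter table held TNFSF18 and TNFAIP3 among its 35116 promoters. Their 250 bases before the annotated start are shown because these genes differed with DHT in opposite directions, and the sequences were searched on both strands for an NF-kB-like motif (GGGA and CC with any 4 bases between), for the androgen response element with both arms exact (AGAACA and TGTTCT with any 3 bases between), and for its arm AGAACA alone. Both are given 5′ to 3′ on the gene's strand, in lower case with each match in capitals (RefSeq, GRCh38.p14). The TNFSF18 window is chr1:173050942-173051191, minus strand, and the TNFAIP3 window is chr6:137867009-137867258, plus strand, which precedes the start the table uses although the RefSeq gene model, with 12 transcripts, begins further upstream.
TNFSF18: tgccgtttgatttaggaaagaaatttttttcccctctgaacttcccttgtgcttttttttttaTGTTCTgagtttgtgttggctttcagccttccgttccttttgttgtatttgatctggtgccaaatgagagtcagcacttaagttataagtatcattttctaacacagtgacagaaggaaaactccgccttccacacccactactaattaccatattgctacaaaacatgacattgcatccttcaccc
TNFAIP3: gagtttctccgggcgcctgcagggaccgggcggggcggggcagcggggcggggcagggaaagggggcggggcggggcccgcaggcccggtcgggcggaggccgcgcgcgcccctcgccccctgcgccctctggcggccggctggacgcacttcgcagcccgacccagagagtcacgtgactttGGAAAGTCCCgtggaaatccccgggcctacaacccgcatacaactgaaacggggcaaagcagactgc

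The TNFAIP3 window held 1 match to the NF-kB-like motif, on the reverse strand, from 67 to 58 bases before the start, and none to the androgen motifs. The TNFSF18 window held 1 match to the arm of the androgen response element, on the reverse strand, from 187 to 182 bases before the start, and none to the NF-kB-like motif. Such matches are common: 22.6% of all promoter windows held the NF-kB-like motif and 12.4% the single arm, whereas the full element occurred in 1 of 35116 windows. The windows also differ in base composition. G and C made up 38.8% of the TNFSF18 window, lower than in most promoters, and 74% of the TNFAIP3 window, against a median of 58% over all promoters. Only these spellings were searched, so other forms of either motif stay in lower case and were not counted. The search describes letters in a window and was not a test of binding.

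TNFSF18, the ligand gene, was lower on both DHT arrays. Its log2 signal was 6.49 in siPOTEF-AS1 DHT cells against 7.70 in siPOTEF-AS1 vehicle cells, and 5.31 in siControl DHT cells against 7.35 in siControl vehicle cells. Both vehicle signals thus lay above both DHT signals, and the DHT signal of siControl cells was by far the lowest. The share of all genes with the same order of arrays was not counted. The DHT minus vehicle difference was -1.22 on the log2 scale in siPOTEF-AS1 cells and -2.04 in siControl cells, a mean of -1.63 ± 0.41. Here and below, ± gives the distance of either difference from the mean of both. It reflects how far both conditions differ and is not an error over replicates. Of the 1344 expressed named genes, 12 (0.893%) were lower by at least 2-fold with DHT in siPOTEF-AS1 cells and 9 (0.67%) in siControl cells, while 15 (1.12%) and 17 (1.26%) were higher. TNFSF18 ranked 6 among the genes lower with DHT in siPOTEF-AS1 cells and 1 in siControl cells, and was among 7 genes lower by 2-fold in both arms. Since the choice of the gene drew on these contrasts, the ranks are descriptions. No fold is given, because both DHT signals lay below the floor, at 6.49 in siPOTEF-AS1 cells and 5.31 in siControl cells. In RNA from whole cultures, fewer cells with a transcript and less of it per cell cannot be told apart.

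**Figure D1:**
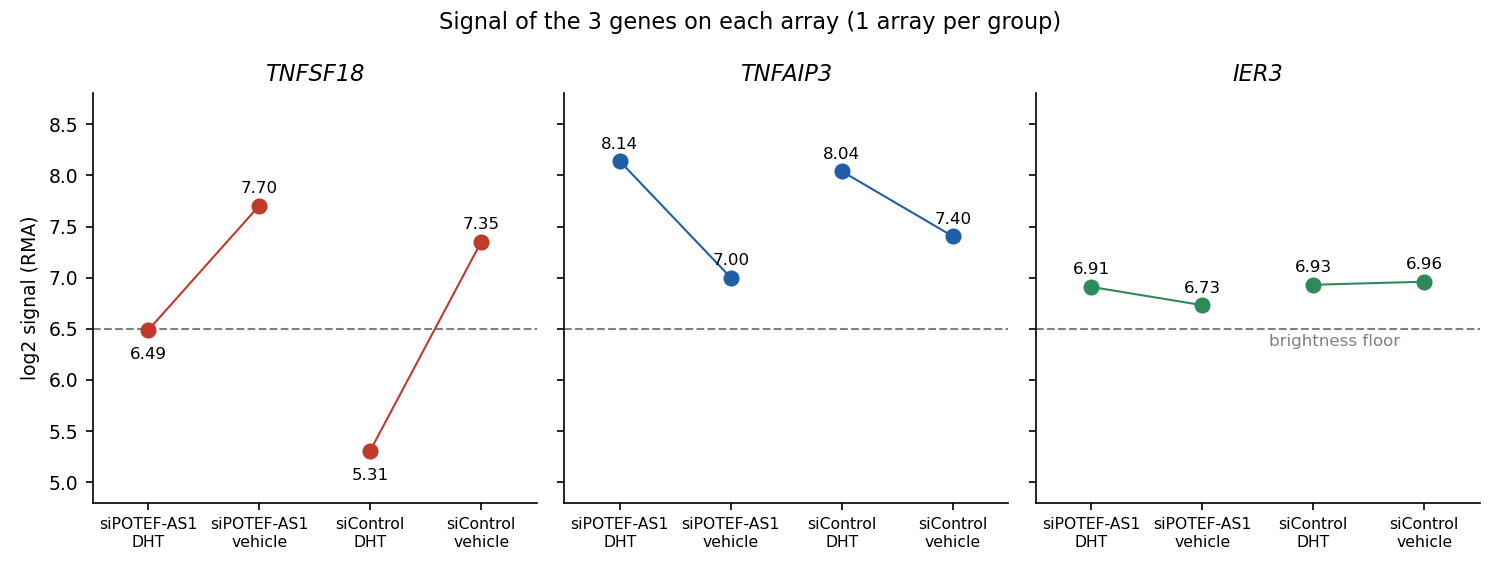
Log2 signal of TNFSF18, TNFAIP3 and IER3 (y axis) on each of the 4 arrays (x axis), 1 point per array, with lines joining the DHT and vehicle arrays of an siRNA arm and a dashed line at the brightness floor of 6.50. TNFSF18 was low on both DHT arrays, TNFAIP3 was high on them, and IER3 stayed between 6.73 and 6.96.

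TNFSF18 was also higher with the knockdown. In DHT its log2 signal was 6.49 in siPOTEF-AS1 cells against 5.31 in siControl cells, a difference of 1.18, and in vehicle 7.70 in siPOTEF-AS1 cells against 7.35 in siControl cells, a difference of 0.35 or 1.28-fold. The mean over both hormone treatments was 0.77 ± 0.41; both signals in DHT lay below the floor, and with values raised to the floor the difference in DHT was 0. In DHT, 2 named genes (0.149%) were higher by 2-fold with siPOTEF-AS1, TNFSF18 being 1 of them, and 0 (0%) were lower; in vehicle none was 2-fold apart in either direction. Among 3593 annotated probe sets with a mean signal within 0.5 of that of TNFSF18, itself included, 11.4% were as far apart in vehicle, in either direction. In DHT the share was 0.0278%, which is TNFSF18 itself, on a contrast known when the gene was chosen. The vehicle difference was therefore of a size seen in many probe sets of like brightness. The DHT responses of the 2 arms differed by 0.82, less negative with siPOTEF-AS1, a distance that 0.744% of named genes reached in that direction. Among probe sets of like brightness, 1.45% were as far apart in either direction. At 2-fold, which TNFSF18 did not reach, there were 2 named genes (0.149%) in that direction and 0 (0%) in the other.

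The order of the TNFSF18 signals was siPOTEF-AS1 vehicle, siControl vehicle, siPOTEF-AS1 DHT and siControl DHT. The gap between both vehicle arrays, 0.35, lay within the 0.45 that 95% of probe sets of like brightness did not exceed, so these neighbours were not separated beyond that spread. The next gaps, 0.86 and 1.18, exceeded the corresponding limits of 0.60 and 0.41. These limits are spreads over probe sets and not over replicates. TNFSF18 was chosen with its differences known, so the gaps are a description. The siControl DHT value entered 3 of the TNFSF18 results at once: the DHT difference in siControl cells, the knockdown difference in DHT and the difference of the responses. The 2 contrasts that do not use that array are the DHT difference in siPOTEF-AS1 cells, -1.22, and the knockdown difference in vehicle, 0.35. With signals below the floor set to the floor, the DHT difference was -1.20 in siPOTEF-AS1 cells and -0.85 in siControl cells, the knockdown difference in DHT was 0, and the difference of the responses turned to -0.35. The knockdown difference of TNFSF18 in DHT thus lay wholly between 2 signals not shown to be above background.

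TNFAIP3, the gene of the NF-kB inhibitor A20, differed in the opposite direction with DHT. Its log2 signal was 8.14 in siPOTEF-AS1 DHT cells against 7.00 in siPOTEF-AS1 vehicle cells, and 8.04 in siControl DHT cells against 7.40 in siControl vehicle cells. Both DHT arrays lay above both vehicle arrays, an order whose share over all genes was not counted, and the 4 signals were above the floor. TNFAIP3 was 1.14 higher on the log2 scale in siPOTEF-AS1 cells, or 2.20-fold, and 0.64 higher in siControl cells, or 1.55-fold, for a mean of 0.89 ± 0.25. It stood at rank 12 among the genes higher with DHT in siPOTEF-AS1 cells and at rank 37 in siControl cells, where 1.12% and 1.26% of named genes were higher by 2-fold and 3.65% and 2.83% by 1.5-fold. Of 3347 annotated probe sets within 0.5 of its mean signal, 1.49% were as far apart, in either direction, in siPOTEF-AS1 cells and 4.9% in siControl cells.

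The larger DHT difference of TNFAIP3 in siPOTEF-AS1 cells lay mostly in the vehicle signals. With the knockdown it was 8.14 in siPOTEF-AS1 cells against 8.04 in siControl cells in DHT, a difference of 0.10, and 7.00 against 7.40 in vehicle, a difference of -0.40 or 1.32-fold lower in siPOTEF-AS1 cells. Neither passed 1.5-fold, which 0.744% of named genes did upwards and 0.521% downwards in DHT, and 0.298% and 0.967% in vehicle. In vehicle, 4.66% of probe sets of like brightness were as far apart as TNFAIP3. The siPOTEF-AS1 vehicle array gave the lowest signal of 28.3% of those probe sets. The basal marker KRT5, named after its values were seen, was also lowest on that array, at a signal below the floor. At the dimmer brightness of TNFSF18, 42.4% of probe sets were lowest there, so this place is common among dim probe sets. KRT5 lay 0.59 below siControl vehicle there, a distance that 1.58% of probe sets of its own brightness reached in either direction. The part of KRT5 in the result was not tested. The DHT responses of TNFAIP3 differed by 0.50 between the arms, a distance that 4.91% of the named genes reached in that direction. Among probe sets of like brightness, 7.62% were as far apart in either direction. This direction was the commoner over all expressed named genes, with 3.35% past 1.5-fold against 0.744% in the other. In the order of its signals, both DHT arrays, 0.10 apart, were not separated beyond the like-brightness limit of 0.41. The gaps of 0.635 and 0.404 below them stood just past their limits of 0.632 and 0.396. TNFAIP3 was chosen with its differences known, so these gaps too are a description.

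IER3 was the flat member. Its log2 signal was 6.91 in siPOTEF-AS1 DHT cells against 6.73 in siPOTEF-AS1 vehicle cells, and 6.93 in siControl DHT cells against 6.96 in siControl vehicle cells. The 4 signals spanned 0.23, between 0.23 and 0.46 above the floor, and the DHT and vehicle arrays overlapped. With DHT it differed by 0.18 in siPOTEF-AS1 cells and by -0.03 in siControl cells, where the sign became positive under each of 3 other scalings of the arrays. With the knockdown it differed by -0.02 in DHT and by -0.23 in vehicle. Among 3527 probe sets of like brightness, 57% were as far apart with DHT in siPOTEF-AS1 cells, 87% with DHT in siControl cells, 90.9% with the knockdown in DHT and 28.2% with the knockdown in vehicle. No gap between neighbours in the order of the IER3 signals exceeded the limit for its brightness. Its lowest value was on the siPOTEF-AS1 vehicle array, as it was for 41.5% of the probe sets of like brightness. IER3 had 2 probe sets with identical values, counted as 1 measurement, both annotated with a transcript on the alternative MHC haplotype contig HSCHR6_MHC_MANN (30755673 to 30757022, minus strand, GRCh37).

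**Figure D2:**
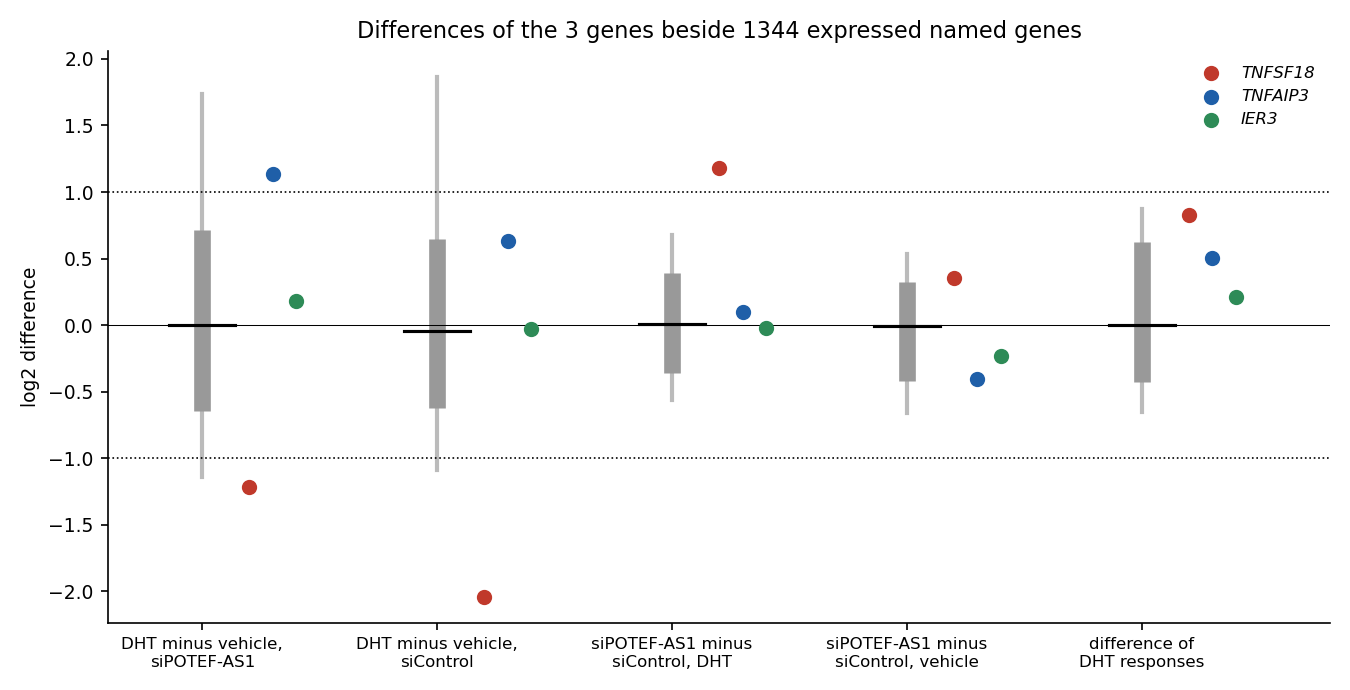
Log2 differences (y axis) of TNFSF18, TNFAIP3 and IER3 in the 4 contrasts and in the difference of the DHT responses (x axis), beside the 1344 expressed named genes, whose central 95% is the thick grey bar, central 99% the thin grey line and median the black line; dotted lines mark 2-fold. TNFSF18 lies at -1.22 and -2.04 for DHT and at 1.18 for the knockdown in DHT, TNFAIP3 at 1.14 and 0.64 for DHT, and IER3 inside the thick bar in all 5.

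On the deposited signals TNFSF18 was lower by more than 2-fold with DHT in both arms, but with values raised to the floor in siPOTEF-AS1 cells alone (-1.20, against -0.85 in siControl cells). At 2-fold TNFAIP3 was higher in siPOTEF-AS1 cells, and IER3 passed in none of the contrasts. The ligand and the A20 gene thus differed in opposite directions with DHT on either siRNA background, whereas IER3, which like TNFAIP3 is counted among NF-kB target genes, did not follow TNFAIP3. The root mean square distance between profiles centred on their own mean was 1.34 for TNFSF18 and TNFAIP3, 0.97 for TNFSF18 and IER3, and 0.41 for TNFAIP3 and IER3, over 4 arrays. The probe sets of TNFSF18 and TNFAIP3 were annotated with GenBank complementary DNAs, and that of TNFAIP3 is described there as apparently retaining an intron. None was marked as cross-hybridising.

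**Figure D3:**
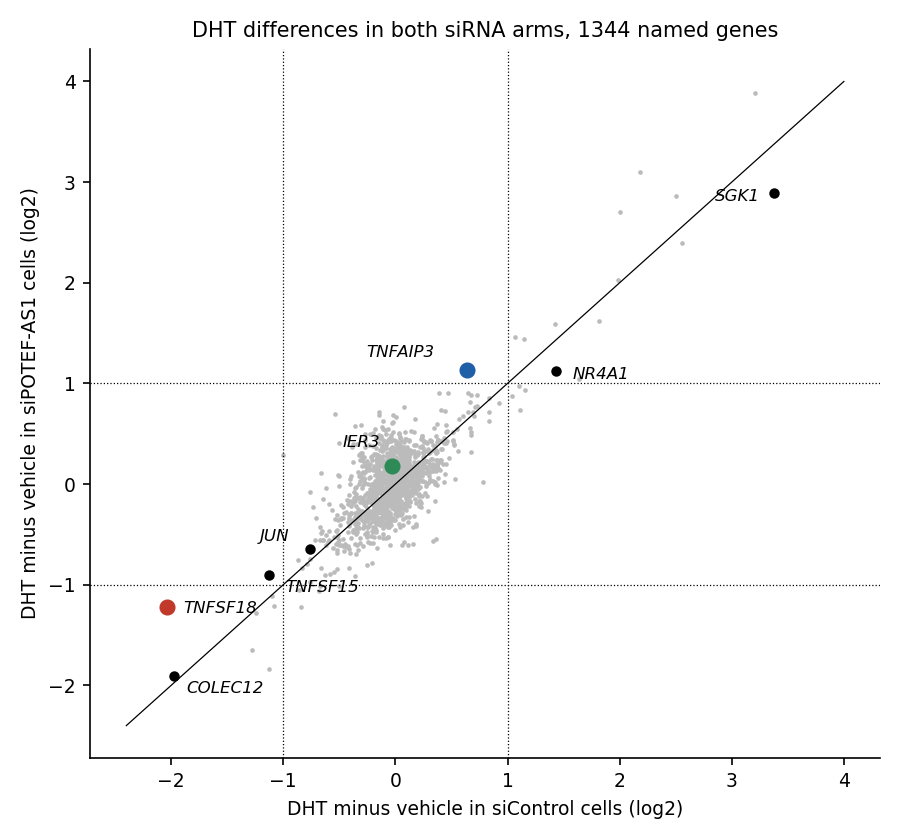
DHT difference in siPOTEF-AS1 cells (y axis, log2) against that in siControl cells (x axis, log2) for 1344 expressed named genes (grey), with the 3 genes in colour, other named genes of the text in black, the line of equal difference, and dotted lines at 2-fold. TNFSF18 lies lower left, above the line of equal difference, TNFAIP3 upper right above that line, and IER3 in the central cloud.

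The surrounding pathway was looked at through 8 lists with 184 genes, of which 18 were measured under their name, TNFSF18, TNFAIP3 and IER3 included. Of the other 15, 13 reached the floor. With DHT in siPOTEF-AS1 cells 2 of these 13 were higher and 2 lower by at least 1.5-fold, and in siControl cells again 2 and 2, where 3.65% of named genes were higher and 4.02% lower in siPOTEF-AS1 cells and 2.83% and 3.05% in siControl cells. The median difference of the 13 was -0.01 in both arms, against 0.00 and -0.04 over all expressed named genes. With the knockdown, none of the 13 was 1.5-fold apart in DHT or in vehicle, which says little over so few genes. Of all expressed named genes, 0.744% were higher and 0.521% lower by 1.5-fold in DHT, and 0.298% and 0.967% in vehicle. The genes past 1.5-fold with DHT were TNFSF15 and JUN, both lower, and NR4A1 and SGK1, both higher, in both arms.

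TNFSF15, the gene of the TNF ligand TL1A, differed in the same direction as TNFSF18. Its log2 signal was 7.77 in siPOTEF-AS1 DHT cells against 8.68 in siPOTEF-AS1 vehicle cells, and 7.51 in siControl DHT cells against 8.64 in siControl vehicle cells. Unlike TNFSF18 it was above the floor on the 4 arrays, and it was 1.87-fold lower with DHT in siPOTEF-AS1 cells and 2.19-fold lower in siControl cells (differences of -0.91 and -1.13). With the knockdown TNFSF15 was higher by 0.26 in DHT and by 0.04 in vehicle, both under 1.5-fold. TNFRSF25, which encodes the death receptor that TL1A binds, differed by 0.09 and 0.08 with DHT in siPOTEF-AS1 and siControl cells, at log2 signals from 8.24 to 8.35. LTB, the gene of lymphotoxin beta, differed by 0.19 and -0.26, and LTA, that of lymphotoxin alpha, lay below the floor on the 4 arrays. Thus of 18 ligand genes 4 were measured under their name, and TNFSF18 and TNFSF15 were the ones past 1.5-fold, lower with DHT in both arms. TNFSF18 was chosen with this difference known. Of all expressed named genes, 4.02% were lower by 1.5-fold in siPOTEF-AS1 cells and 3.05% in siControl cells. GITR, the receptor of TNFSF18, was not measured under its name.

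Few inhibitors and steps of the NF-kB pathway were measured under their name: 3 of 18 inhibitor and feedback genes, 1 of 13 A20 partners, 2 of 29 upstream genes and 4 of 48 target genes, some on more than 1 list. Of those that reached the floor, UBE2D3, UBE2V1, BCL10 and CSF1 besides TNFAIP3 and IER3, TNFAIP3 was the one past 1.5-fold with DHT. It was chosen with this difference known, so its place among them is a description. Of all expressed named genes, 3.65% passed 1.5-fold upwards in siPOTEF-AS1 cells and 2.83% in siControl cells. TRAF1, an adaptor gene induced by NF-kB, lay below the floor on the 4 arrays. Of 13 genes whose products work with A20, UBE2D3, a ubiquitin-conjugating enzyme gene, was measured, and it differed by -0.02 and -0.07 with DHT in siPOTEF-AS1 and siControl cells. UBE2V1, a cofactor gene of ubiquitin chain formation, differed by -0.18 and -0.15, and BCL10, which links antigen receptors to the IkB kinases, by 0.10 and 0.06. The NF-kB target CSF1, the gene of macrophage colony-stimulating factor, differed by -0.33 and -0.21. None of the 5 genes of NF-kB subunits was measured under its name.

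IER3 was 1 of 7 genes measured under their name, of 46 on the immediate early list. Of the other 6, NR4A1, an orphan nuclear receptor gene, was 2.18-fold higher with DHT in siPOTEF-AS1 cells and 2.69-fold higher in siControl cells. JUN, a subunit gene of the AP-1 transcription factor, was 1.57-fold and 1.70-fold lower. SGK1, a kinase gene induced by steroid hormones, differed by 2.89 and 3.37, from vehicle signals below the floor. ZFP36L1, an RNA-binding protein gene that promotes mRNA decay, differed by -0.01 in both arms, CTGF (CCN2), a matricellular protein gene, by 0.23 and 0.00, and GADD45A, a growth arrest gene, by -0.29 and 0.04. The 6 genes had a median of 0.11 in siPOTEF-AS1 cells and of 0.02 in siControl cells.

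**Figure D4:**
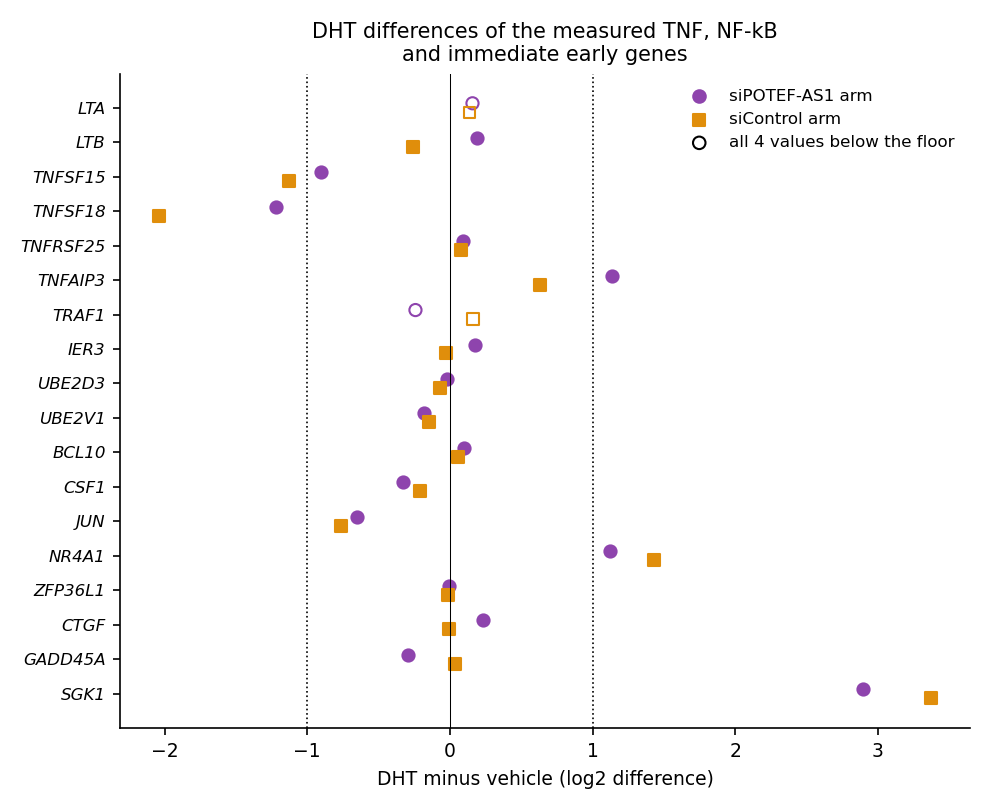
DHT minus vehicle (x axis, log2 difference) of the 18 measured genes of the TNF, NF-kB and immediate early lists (rows), as circles for the siPOTEF-AS1 arm and squares for the siControl arm; open symbols are genes below the floor on the 4 arrays and dotted lines mark 2-fold. TNFSF18 and TNFSF15 lie to the left in both arms, TNFAIP3, NR4A1 and SGK1 to the right, and most others within 0.33 of 0.

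The table's own annotation gave TNFSF18 8 biological process terms, TNFAIP3 52 and IER3 15, and 1 term, negative regulation of apoptotic process, was common to all 3. TNFAIP3 and IER3 shared 3 more terms, among them negative regulation of inflammatory response. These term lists were taken up after the values were seen. The apoptosis term held 40 other named genes, 30 of them expressed. With DHT, 2 of the 30 were higher by 2-fold in siPOTEF-AS1 cells, the growth factor receptor gene IGF1R and the actin monooxygenase gene MICAL1, and 3 in siControl cells, these and TSC22D1, a leucine zipper gene; none was lower. Over all 1344 expressed named genes, 1.12% and 1.26% were higher by 2-fold and 0.893% and 0.67% lower. Their median difference was -0.07 in siPOTEF-AS1 cells and -0.04 in siControl cells, with 20 and 19 of the 30 below 0, against medians of 0.00 and -0.04 over all expressed named genes, with 677 and 779 of 1344 below 0. With the knockdown 15 of the 30 were above 0 in DHT and 23 in vehicle, against 703 and 662 of 1344 expressed named genes. The vehicle median of the 30 was 0.06, and this lean was not tested. None of the 30 was 1.5-fold apart with the knockdown, where 0.744% of all were higher and 0.521% lower in DHT, and 0.298% and 0.967% in vehicle. Of 4 other expressed genes of the inflammation term and 5 of positive regulation of NF-kB activity, a term of TNFSF18, none was 1.5-fold apart with DHT or with the knockdown, which over so few genes says little beside these shares.

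The named genes with the most similar profile over the 4 arrays were sought by the root mean square distance of centred log2 signals. Nearest to TNFSF18 was TNFSF15, at 0.46, ahead of the scavenger receptor gene COLEC12 and the ciliary transcription factor gene RFX3, at 0.46 and 0.47, EFCAB11, an EF-hand protein gene, at 0.47, and C10orf91 at 0.49. No gene lay within 0.2 of TNFSF18. All 5 were lower with DHT in both arms, RFX3 and C10orf91 with both DHT signals below the floor. Choosing genes by profile on these same arrays favours that direction. The DHT differences of the 5 ran from -1.91 to -0.91 in siPOTEF-AS1 cells and from -1.97 to -1.08 in siControl cells. Their knockdown differences in DHT ranged from -0.12 to 0.26.

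TNFAIP3 had 16 genes within 0.2. Among its near profiles was MANF, a secreted endoplasmic reticulum stress protein gene, at 0.10. The log2 signal of MANF was 11.2 in siPOTEF-AS1 DHT cells against 10.3 in siPOTEF-AS1 vehicle cells. In siControl cells it was 11.1 with DHT against 10.5 with vehicle. Its lowest value was on the siPOTEF-AS1 vehicle array, which follows from choosing it by profile. LOC388022 lay at 0.14, ECI2, a fatty acid oxidation enzyme gene, at 0.14 and LOC100128262 at 0.16. IER3 had 1001 genes within 0.2 of its flat profile, and its nearest, TAS1R3 (a taste receptor gene), ARHGAP27 (a GTPase-activating protein gene), CCDC177, LOC101060547 and LOC149134, at 0.01 to 0.02, were no more than examples of genes that differed little.

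**Figure D5:**
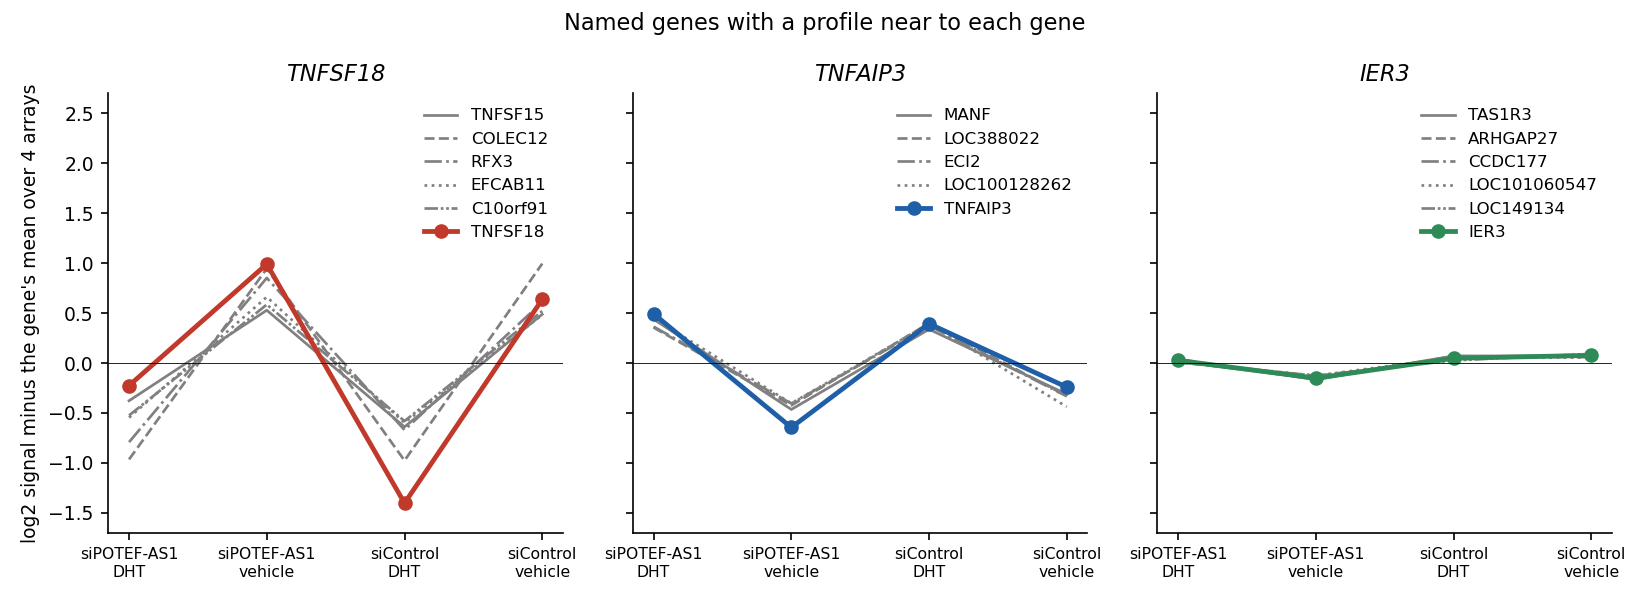
Log2 signal minus the gene's mean over the 4 arrays (y axis) by array (x axis) for TNFSF18, TNFAIP3 and IER3 (coloured points and lines) and for the named genes near to each that the text gives (grey lines). The neighbours were picked by profile on these arrays, so likeness to each gene comes from the choice. Those of TNFSF18 share its low DHT values but none is as low on the siControl DHT array. MANF follows TNFAIP3 at a root mean square distance of 0.10, and IER3 and its neighbours are flat.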

How the data were processed

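Per the submitters' processing notes, the authors made the deposited log2 signals with Affymetrix Expression Console and RMA, with no versions named; RMA corrects background, equalises the arrays' distributions, so that a global change is removed, and compresses differences of dim probe sets. A further deposited table held the same log2 values. Of 33297 probe sets, 26722 were annotated, 2540 carried 1 symbol, 55 several (left unnamed), and 156 were named through their RefSeq accession. Each gene was represented by its brightest probe set. Differences between arrays, counts at 2-fold and 1.5-fold, and profile distances were computed in Python 3.11.15 with NumPy 2.4.6 and pandas 2.3.3, and the trend removal with statsmodels 0.14.6 (lowess, span 0.3); the code was tested on simulated data. With 1 array per group there was no test, and precision is limited by having 4 arrays. The genes, lists and rules were chosen with earlier results of these data known. Genes named were the 3, list genes past 1.5-fold in any contrast or on the TNF ligand, TNF receptor or A20 partner lists, and the 5 nearest profiles of each; the remaining list genes, KRT5 and KRT15 were named after their values were seen, and 1 gene near to TNFAIP3 is not reported here. The table gives no coordinates for TNFSF18 and TNFAIP3, and no neighbouring named gene on the contig of IER3. The alternatives tried were 3 other scalings, the further table, values raised to the floor, the mean of a gene's probe sets, other filters and folds, and correlation in place of distance.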

Additional observations from a re-analysis of the deposited data

Results flagged for a closer look

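The knockdown difference of TNFAIP3 went in opposite directions in both hormone treatments, 0.10 in DHT and -0.40 in vehicle, and that difference was not tested, with 1 array per group. The DHT difference of IER3 went in opposite directions in both siRNA arms, 0.18 in siPOTEF-AS1 cells and -0.0295 in siControl cells, and was likewise not tested.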

How the results depend on the processing

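The 15 differences of TNFSF18, TNFAIP3 and IER3 moved by less than the robust SD of all expressed named genes, which stands in for the absent replicate spread, when arrays were centred on their medians, quantile-normalized again or freed of the trend with signal, with the further deposited table, and with the mean over probe sets. Only IER3 with DHT in siControl cells changed sign under these scalings, to between 0.01 and 0.02. With values below the floor raised to it, 3 TNFSF18 results moved: the DHT difference in siControl cells to -0.85, the knockdown difference in DHT to 0 and the difference of the responses to -0.35; the cause is that construction, since both DHT signals were below the floor. The number of named genes lower by 2-fold with DHT was 5 in siPOTEF-AS1 and 4 in siControl cells, against 12 and 9, when the filter was set at the 75th percentile. At 1.5-fold the genes higher and lower with DHT numbered 49 and 54 in siPOTEF-AS1 cells and 38 and 41 in siControl cells. With no filter on dim genes, the genes higher and lower by 2-fold with the knockdown numbered 5 and 2 in DHT, against 2 and 0, and 3 and 1 in vehicle, against 0 and 0, and those of the difference of the responses 15 and 7, against 2 and 0; the filter at the 75th percentile left 1 higher in DHT and 1 in the difference. Ranking by Pearson correlation in place of distance kept 0 of 5 neighbours of TNFSF18, 1 of TNFAIP3 and 0 of IER3. No paired analysis was possible because each group has 1 array, so no replicate numbers pair samples across groups; the means over both arms in the text carry no test.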
